A study of Mus musculus with 16 samples.

Results

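The comparison described here is of leukaemia cells sorted from bone marrow (BM) into a Sca1-positive and a Sca1-negative fraction. Libraries were chosen by their labelled tissue and sorted population, which gave 8 of the 16 bulk RNA libraries of the series, 4 per fraction. The LSK libraries held lineage-negative cells that carried Sca1, cKit and IL7R on their surface. The LK libraries (LK/CLP in the labels) held lineage-negative, Sca1-negative, cKit-positive cells. All cells came from mice labelled miR-128a overexpressing Kmt2a-AFF1+, a model of pro-B acute lymphoblastic leukaemia (pro-B ALL), so both fractions carry the fusion gene and the microRNA. The promoter that drives either transgene, the age and sex of the mice and the number of mice behind a library are not given in the sources used here. Of 55414 gene identifiers in the count table, 18087 averaged 10 counts or more across these libraries and were tested. The study compared its samples by sorted population and by site, and the other 8 libraries are the same fractions from the central nervous system (CNS).

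Sca1 is the surface protein encoded by Ly6a, an interferon-responsive gene of the Ly6 family, and cKit is the receptor for stem cell factor. Normal marrow cells with both proteins include the haematopoietic stem cells, while lineage-negative cKit-positive cells without Sca1 are committed progenitors. In leukaemia models such sorts are used to separate cells that may propagate the disease. IL7R is the receptor chain for interleukin 7, on which early lymphoid cells depend.

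The BM libraries held from 19.2 M to 27.9 M counts (M, mega). Identifiers with no gene symbol took 40.5% to 43.2% of the counts of a BM library. Olfactory and vomeronasal receptor genes, which blood cells are not known to use, summed to 751, 802, 302 and 514 CPM (a count scaled to the library's total in the usual way) in the LSK libraries, over the counts of identifiers with a symbol. The LK libraries held 462, 468, 477 and 334 on the same measure, called the receptor background here. LSK 3 was the lowest of the 8 and LSK 1 and LSK 2 were the highest.

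The label pro-B was set against the levels of lineage genes, given in CPM on TMM-scaled library sizes. Of 5 genes checked that define early B cells, none reached 2 CPM in any BM library. Ebf1, the transcription factor that starts the B-cell programme, lay between 0.0446 and 1.02 CPM, and Pax5, which holds cells in it, between 0.0446 and 0.911 CPM. Cd79a was at most 1.98 CPM, and the surrogate light chain genes Vpreb1 and Igll1 at most 0.214 CPM. Of the 4 T-lineage genes checked, Bcl11b (271 to 304 CPM), Tcf7 (505 to 661 CPM) and Lck (207 to 233 CPM) were present in every library, while Cd3e was at most 0.422 CPM. Notch1, the receptor that directs progenitors towards the T lineage, ran from 1325 to 1541 CPM. The defining B-lineage markers were thus at or near 0 in the libraries labelled pro-B, and the fractions are called LSK and LK below, by their sort.

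**Figure D1:**
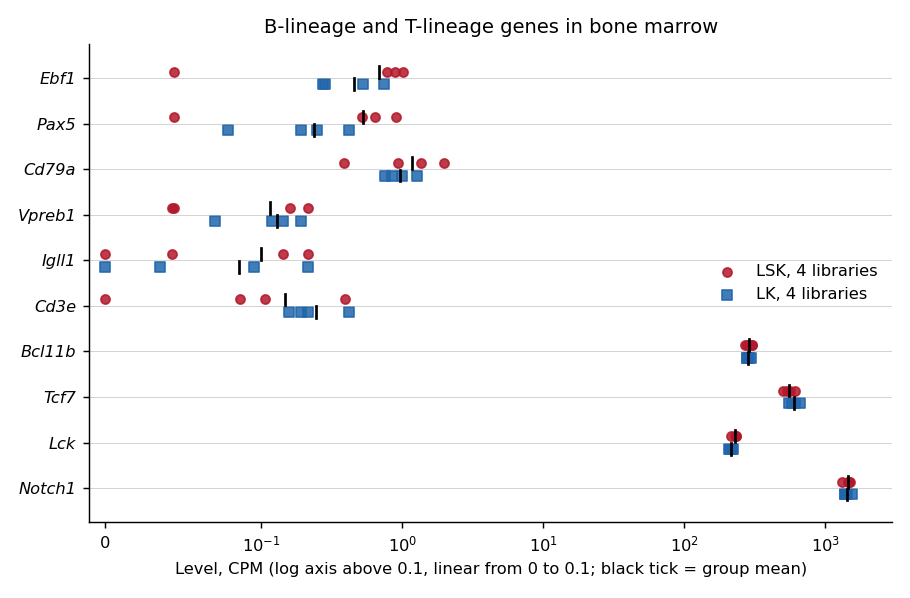
Levels of 5 B-lineage genes (top), of Cd3e and of 4 further T-lineage genes in the 8 BM libraries. Each point is a library in CPM and black ticks are group means; the axis is linear below 0.1 CPM and logarithmic above it. The B-lineage genes stay at or below 1.98 CPM, and the LSK and LK points of Bcl11b, Tcf7, Lck and Notch1 overlap.

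Neither list of lineage genes had a median far from that of all genes. Of 30 T-lineage genes tested, the median log2 difference (LSK minus LK) was 0.01, beside 0.01 over all genes tested. Notch1 had 1445, 1483, 1511 and 1325 CPM in LSK libraries and 1541, 1432, 1385 and 1390 CPM in LK libraries. Of 20 B-lineage genes tested, the median was 0.10, and Rag1, a recombinase that both lymphoid lineages use, differed by -0.12 ± 0.13 (SE). In 1 B-lineage gene (5%, against 1.91% of all genes) the groups were apart. That gene, Irf8, a regulator of B-cell and myeloid fate, had 2.84, 1.93, 2.09 and 2.07 CPM in LSK and 1.89, 1.55, 1.81 and 0.790 CPM in LK. Without LSK 3, 4 genes were apart (18.2%, against 5.71% of all genes). None of the 20 had an unadjusted p under 0.05. Higher at such a p were 3 without LSK 3 (13.6%, against 5.89% of all genes) and 4 without LSK 4 (20%, against 3.62%). The exceptions in the T-lineage list were low. Cd3g, a chain of the T-cell receptor complex, had 0.643, 0.927, 0.446 and 1.08 CPM in LSK and 0.213, 0.176, 0.191 and 0.356 CPM in LK libraries. These values rest on 10 to 26 counts per LSK library and 4 to 9 per LK library. Cd3d had 0.804, 1.18, 0.713 and 0.734 CPM in LSK against 0.392, 0.668, 0.286 and 0.474 CPM in LK. The groups were apart in both genes, meaning that every LSK library lay above every LK library, and neither gene passed the adjusted test (edgeR adjusted p = 0.319 and 0.769). Both together were 6.67% of the T-lineage genes tested, against 1.91% of all genes apart in that direction.

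No gene passed the adjusted edgeR test of LSK against LK with group as the 1 term. The quasi-likelihood test of edgeR, with Benjamini-Hochberg adjustment over 18087 genes, called 0 genes at an adjusted p of 0.05 (0%), and the smallest adjusted p was 0.108. Without adjustment, 1113 genes had p under 0.05, of which 712 (3.94%) were higher and 401 (2.22%) lower in LSK. The groups were apart in 345 genes (1.91%) with every LSK library higher, and in 246 genes (1.36%) with every LSK library lower. With 1 library left out, these became 480 to 1087 genes higher at an unadjusted p under 0.05 and 506 to 1054 apart with LSK higher, both highest without LSK 3. DESeq2, run on the same counts, called 81 of the 8619 genes to which it gave an adjusted p (0.94%), 76 of them higher and 5 lower in LSK. With the title numbers of the libraries as a block, edgeR called 111 genes, and what those numbers mark is not given. The genes named below are therefore described by their levels and by these shares of all genes. The labels do not say that libraries came from separate animals, so p-values measure the spread between these samples.

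The sort antigen that separates the fractions was the one whose RNA differed. Ly6a, which encodes Sca1, had 1.23, 1.53, 1.20 and 1.34 CPM in the LSK libraries and 0.463, 0.527, 0.524 and 0.632 CPM in the LK libraries. Every LSK library lay above every LK library, on 23 to 43 counts per LSK library and 11 to 16 per LK library. The means were 1.33 ± 0.149 and 0.536 ± 0.0704 CPM (SD, n = 4), and the log2 difference was 1.30 ± 0.27 (edgeR adjusted p = 0.174), a 2.47-fold higher level in LSK. Kit, which encodes cKit, had 164, 138, 139 and 148 CPM in LSK and 123, 141, 139 and 153 CPM in LK. Its log2 difference was 0.08 ± 0.08, and the groups overlapped. Both sorts took cKit-positive cells. Il7r had 60.0, 80.2, 76.8 and 102 CPM in LSK and 75.0, 89.0, 76.8 and 102 CPM in LK, a log2 difference of -0.10 ± 0.14. The Il7r groups overlapped, although IL7R is named in the label of the LSK sort and not in that of the LK sort.

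Among the other Ly6 genes, which lie in 1 family with Ly6a, 5 were tested and none separated the groups. Ly6e, a broadly expressed member of the family, ran from 431 to 511 CPM in LSK and from 460 to 482 CPM in LK. Ly6d, a marker of early lymphoid progenitors, ran from 88.6 to 115 CPM in LSK and from 88.1 to 114 CPM in LK. Kmt2a and Aff1 are the mouse genes of the partners named in the label Kmt2a-AFF1+, and R3hdm1 and Arpp21 host miR-128. All 4 had log2 differences between -0.12 and 0.01, with overlapping groups. Whether their counts include reads of the fusion is not given in the sources used here.

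The genes of mitosis were higher in LSK as a body. Cells that enter mitosis switch on a shared set of genes late in the cell cycle. The cyclin B kinase drives entry, the spindle checkpoint and the anaphase-promoting complex (APC/C) control exit, kinetochore proteins and kinesins move the chromosomes, and the cytokinesis machinery parts the daughter cells. In 5 lists of such genes, 103 genes were listed and all 103 were tested. The log2 difference was above 0 in 103 of 103, with a median of 0.41 and a range from 0.08 to 1.18, beside a median of 0.01 over all genes tested. In 94 (91.3%) the unadjusted edgeR p was under 0.05 with LSK higher, against 3.94% of all genes, and in 61 (59.2%) every LSK library lay above every LK library, against 1.91%. None passed the adjusted edgeR test, and 50 of the 103 passed in DESeq2. These genes move together, so the counts are a description of 1 shared pattern and not of 103 separate ones.

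Summed over the 103 genes, the LSK libraries held 8663, 7061, 8465 and 7553 CPM and the LK libraries 5957, 5729, 6706 and 5781 CPM. LSK 1 and LSK 3 were the highest and LSK 2 the lowest of the LSK libraries, yet all 4 were above LK 3, the highest LK library. LSK 3 had the lowest receptor background of the 8 libraries and LSK 1 one of the 2 highest. With that background as a covariate the median was 0.42, with 94 genes at an unadjusted p under 0.05 (91.3%, against 3.02% of all genes). Without LSK 3 there were 83 (80.6%, against 5.89%), with a median of 0.36. In bulk RNA, more cells in mitosis and more of this RNA per cell cannot be told apart.

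**Figure D2:**
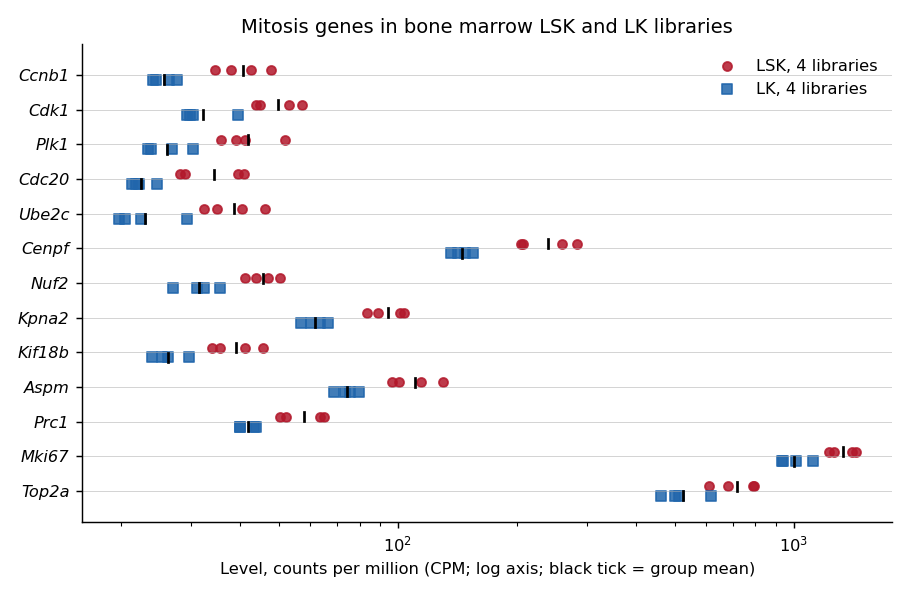
Levels of 13 mitosis genes in the 8 BM libraries, in CPM on a log axis; each point is a library and black ticks are group means. In every gene shown except Top2a, the 4 LSK points lie to the right of the 4 LK points.

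All 18 cyclin, kinase and regulator genes of mitotic entry were at an unadjusted p under 0.05, with 10 apart and a median log2 difference of 0.47. Beside this and each other mitosis list, 3.94% of all genes were higher at such a p and 1.91% were apart with LSK higher. Ccnb1, which encodes cyclin B1, had 47.7, 34.5, 42.7 and 37.9 CPM in LSK and 24.1, 26.4, 24.5 and 27.7 CPM in LK. Its log2 difference was 0.66 ± 0.10 (edgeR adjusted p = 0.108). Cdk1, the kinase that cyclin B activates, had 57.2, 44.8, 53.2 and 43.7 CPM in LSK and 30.4, 29.4, 39.5 and 29.8 CPM in LK, a log2 difference of 0.62 ± 0.11. Plk1, a kinase that acts from mitotic entry to exit, had 51.8, 35.8, 41.2 and 38.9 CPM in LSK against 23.7, 26.9, 30.4 and 23.3 CPM in LK (log2 difference 0.68 ± 0.12, edgeR adjusted p = 0.122). In these 3 genes the groups were apart, with LSK 1 the highest library of the 8. Ccna2, the cyclin that acts from S phase to early mitosis, was higher by 0.52 ± 0.13 with overlapping groups.

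Of 15 genes of the APC/C and the spindle checkpoint, 14 had an unadjusted p under 0.05 and 10 were apart, with a median of 0.38. Ube2c, the ubiquitin-conjugating enzyme of the APC/C, had 46.2, 34.9, 40.5 and 32.4 CPM in LSK and 20.5, 22.4, 29.3 and 19.8 CPM in LK. The log2 difference of 0.74 ± 0.14 was the largest in this list. Cdc20, which activates the APC/C at anaphase, had 40.9, 28.1, 39.5 and 29.1 CPM in LSK against 22.2, 21.3, 21.9 and 24.7 CPM in LK. Pttg1, the securin whose destruction releases the sister chromatids, was the member without an unadjusted p under 0.05, at 0.22 ± 0.22. Bub1b, a checkpoint kinase, was apart by a small margin, with 189.8 CPM in the lowest LSK library and 186 CPM in the highest LK library.

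Kinetochore and centromere genes had the smallest median of the 5 lists, 0.32 over 21 genes, with 15 at an unadjusted p under 0.05 and 10 apart. Cenpf, a large kinetochore and nuclear-matrix protein, had 283, 204, 260.4 and 207 CPM in LSK and 147, 136, 154 and 142 CPM in LK. Its log2 difference was 0.72 ± 0.10 (edgeR adjusted p = 0.108), and LSK 1 and LSK 3 stood above the other LSK libraries. Nuf2, of the complex that binds microtubules, had 50.4, 41.1, 46.9 and 43.7 CPM in LSK against 32.5, 31.0, 35.5 and 27.0 CPM in LK. The 6 members with an unadjusted p of 0.05 or more were Cenpk, Cenpn, Cenpw, Cenpm, Dsn1 and Oip5.

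Kinesins and spindle proteins had the largest median, 0.52 over 26 genes, with all 26 at an unadjusted p under 0.05 and 20 apart. Kpna2, a nuclear import receptor that also releases spindle assembly factors, had 103, 89.1, 101 and 83.8 CPM in LSK and 60.3, 57.1, 66.7 and 63.5 CPM in LK. With a log2 difference of 0.61 ± 0.08 and an edgeR adjusted p of 0.108 it had the smallest p of all genes in DESeq2 (adjusted p = 2.56e-07). The predicted genes Gm10184 and Gm10259 showed the same pattern at 0.61 ± 0.10 and 0.59 ± 0.10. Of the 25-base stretches of their transcripts, 96.4% and 95.2% also occur in Kpna2, so reads of the 3 genes may have been split between them and their values are uncertain. Aspm, a spindle pole protein, had 129.7, 96.7, 115 and 100.5 CPM in LSK against 79.8, 69.1, 75.7 and 73.6 CPM in LK.

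Cytokinesis and chromosome structure genes had a median of 0.39, with 21 of 23 at an unadjusted p under 0.05 and 11 apart. Prc1, which bundles the microtubules of the midzone, had 63.7, 52.1, 64.9 and 50.3 CPM in LSK and 43.2, 39.8, 43.9 and 40.0 CPM in LK. Mki67, which encodes the proliferation antigen Ki-67, had 1432, 1230, 1399 and 1264 CPM in LSK against 1015, 939, 1116 and 932 CPM in LK (log2 difference 0.41 ± 0.08). Top2a, the topoisomerase that untangles chromosomes, had 788, 609, 793 and 682 CPM in LSK against 513, 463, 619 and 501 CPM in LK. Its groups overlapped only through LSK 2, below LK 3.

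Mitosis genes are known to share 2 promoter elements. The cell cycle homology region (CHR, TTTGAA) is bound by the DREAM and MuvB complexes, and the CCAAT box by NF-Y. In the RefSeq promoters (build GRCm38.p6, 250 bases before to 50 bases after the start), 86 of the 103 members had an entry. On either strand, TTTGAA occurred in 54 of them (62.8%) and in 20.2% of all 27025 genes of the table. CCAAT occurred in 62 (72.1%) against 41.1%, and both in 45 (52.3%) against 8.97%. Within 50 bases of the start, a window chosen after the first counts were seen, TTTGAA occurred in 49 (57%) against 5.72%. Matches of the 2 motifs can share at most 1 base. Members with TTTGAA had a median log2 difference of 0.42 (54 genes) and those without 0.40 (32 genes). For CCAAT the medians were 0.43 with it (62 genes) and 0.35 without (24 genes), and for both elements 0.44 (45 genes) against 0.39 (41 genes). These gaps were not tested. A match describes the letters and is not a measured site.

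The promoters of 4 of the genes described above are shown, 1 from each of 4 lists, because each holds both elements. Each runs 5′ to 3′ along the gene, ends 50 bases after the start, and has both elements in capitals, on whichever strand they occur. Kpna2 lies at chr11:106999476-106999775 on the minus strand, Cenpf at chr1:189688037-189688336 on the minus strand, Plk1 at chr7:122159185-122159484 on the plus strand and Ube2c at chr2:164769679-164769978 on the plus strand.
Kpna2: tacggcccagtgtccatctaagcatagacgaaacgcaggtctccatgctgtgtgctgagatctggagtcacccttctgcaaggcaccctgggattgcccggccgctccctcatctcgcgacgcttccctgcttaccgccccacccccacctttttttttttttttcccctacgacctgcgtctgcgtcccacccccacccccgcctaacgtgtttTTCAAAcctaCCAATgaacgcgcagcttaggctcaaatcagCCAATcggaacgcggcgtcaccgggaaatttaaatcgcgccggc
Cenpf: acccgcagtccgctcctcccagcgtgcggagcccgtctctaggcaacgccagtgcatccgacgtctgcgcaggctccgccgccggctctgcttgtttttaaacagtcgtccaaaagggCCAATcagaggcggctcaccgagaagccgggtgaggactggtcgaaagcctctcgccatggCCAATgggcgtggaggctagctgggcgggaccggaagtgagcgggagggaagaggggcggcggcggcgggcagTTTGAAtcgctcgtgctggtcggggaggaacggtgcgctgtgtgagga
Plk1: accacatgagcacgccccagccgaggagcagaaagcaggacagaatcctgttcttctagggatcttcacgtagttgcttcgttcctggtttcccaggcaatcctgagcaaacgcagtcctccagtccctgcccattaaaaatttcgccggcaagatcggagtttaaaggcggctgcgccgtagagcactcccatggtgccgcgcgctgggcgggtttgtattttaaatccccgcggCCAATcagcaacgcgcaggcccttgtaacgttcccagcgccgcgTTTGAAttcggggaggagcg
Ube2c: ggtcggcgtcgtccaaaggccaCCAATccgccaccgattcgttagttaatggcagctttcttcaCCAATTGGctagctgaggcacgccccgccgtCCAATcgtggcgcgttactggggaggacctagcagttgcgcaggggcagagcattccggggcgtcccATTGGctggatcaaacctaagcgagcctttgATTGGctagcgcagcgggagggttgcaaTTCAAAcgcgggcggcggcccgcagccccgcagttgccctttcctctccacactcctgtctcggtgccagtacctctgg
The TTTGAA element begins 35 bases before the start in Kpna2, 2 bases after it in Cenpf, 30 bases after it in Plk1 and 29 bases before it in Ube2c. Ube2c holds 6 CCAAT matches, Kpna2 and Cenpf 2 each, and Plk1 1.

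DNA replication genes had a smaller median than the mitosis genes, and the difference between the lists was not tested. Of 56 tested, 50 had a log2 difference above 0, but the median was 0.08. In 6 (10.7%, against 3.94% of all genes) the unadjusted p was under 0.05, and 3 (5.36%, against 1.91%) were apart. The 6 became 14 without LK 3 (25%, against 4.72%) and 13 without LSK 2 (23.2%, against 3.87%). They became 4 without LK 4 or LSK 1, 3 without LSK 3, 2 without LK 1 or LK 2 and 1 without LSK 4. Those counts are 1.79% to 7.14%, against 2.65% to 5.89% of all genes. The 3 became 8 without LK 3 (14.3%, against 4.5%) and 11 without LSK 2 (19.6%, against 3.63%). Mcm6, a subunit of the replicative helicase, had 303, 299.8, 314 and 340.3 CPM in LSK and 298, 304, 331 and 322 CPM in LK. Uhrf1, which maintains DNA methylation at the fork, differed by 0.09 ± 0.07. Dbf4, which activates the kinase that fires replication origins, had 46.4, 43.2, 46.5 and 48.0 CPM in LSK against 37.7, 35.9, 38.1 and 41.6 CPM in LK, a log2 difference of 0.26 ± 0.07 with the groups apart. Gins1 and Fen1 were the other 2 genes apart.

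Replication-dependent histone genes, whose mRNAs are made in S phase and lack a poly(A) tail, had a log2 difference above 0 in 64 of the 64 tested. The median was 0.39, near that of the mitosis lists. In 50 (78.1%, against 3.94% of all genes) the unadjusted p was under 0.05, and 1 (1.56%, against 1.91%) was apart. The count of 50 fell to 21 without LK 1, 13 without LSK 1, 6 without LK 4, and 5 without LK 2 or without LSK 3. Without LK 3, 53 were apart (82.8%, against 4.50% of all genes). The summed level was 14430, 10400, 14800 and 11490 CPM in LSK and 9647, 8007, 13030 and 8197 CPM in LK. LSK 2 and LSK 4 lay below LK 3, so the sums overlapped. The 1 gene apart was Hist1h2ba, with 44.0, 30.5, 41.0 and 32.3 CPM in LSK against 26.1, 21.4, 30.3 and 25.3 CPM in LK. The list was filled by a pattern of gene names, so a member, Hist1h2ba included, need not be a replication-dependent gene. Histone genes of a cluster share long stretches of sequence, so reads may have been split between copies.

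Regulators of the G1 phase were mixed. Of 26 tested, 2 were higher and 2 lower at an unadjusted p under 0.05 (7.69% each, against 3.94% and 2.22% of all genes). None was apart, and the median was 0.05. Without LSK 2, 5 of 25 were higher at such a p (20%, against 3.87%) and 2 apart (8%, against 3.63%). Btg2, an antiproliferative gene, had 12.1, 12.1, 9.85 and 10.1 CPM in LSK against 13.9, 15.2, 11.9 and 14.3 CPM in LK. Mxd4, which opposes Myc, differed by -0.29 ± 0.11. Cdk6, the kinase of early G1, was level at 451 to 533 CPM in LSK and 463 to 498 CPM in LK. Among 12 p53 targets the median was 0.00 and Gtse1 alone was apart (8.33%, against 1.91% of all genes), at 0.61 ± 0.14. Gtse1 is also a member of the spindle list. None of 10 BCL2 family genes had an unadjusted p under 0.05.

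**Figure D3:**
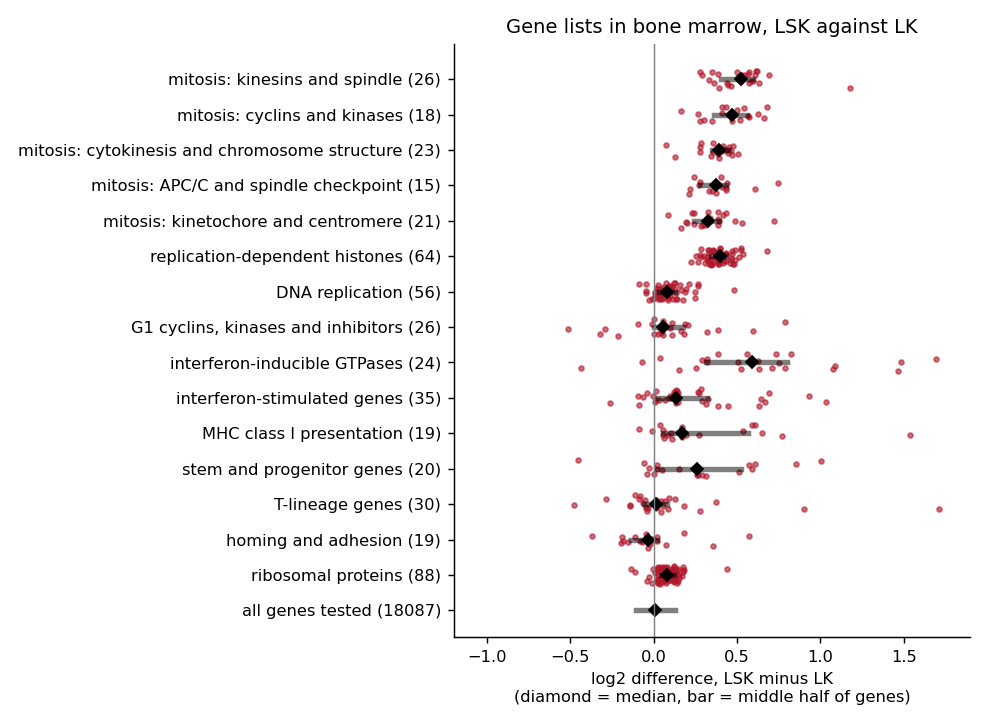
Log2 difference between LSK and LK in BM for the genes of 15 lists (points), with the number tested in brackets; diamonds are medians and bars run from the lower to the upper quartile. All points of the 5 mitosis lists and of the histone list lie above 0, while the medians of the replication, T-lineage, homing and ribosomal lists lie between -0.03 and 0.08.

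Interferon-inducible GTPases had a median above that of every mitosis list, though not without LSK 4. These proteins are made in response to interferon and attack the vacuoles of intracellular pathogens. Of 24 tested, 22 had a log2 difference above 0, the median was 0.59, and 12 (50%) were higher and 1 lower at an unadjusted p under 0.05, against 3.94% and 2.22% of all genes. In 4 (16.7%) the groups were apart, against 1.91% of all genes. Tgtp2 had 18.3, 20.9, 17.6 and 37.0 CPM in LSK and 9.57, 10.1, 9.72 and 14.7 CPM in LK, a log2 difference of 1.09 ± 0.23 (edgeR adjusted p = 0.168). Tgtp1 had 13.4, 15.8, 12.4 and 27.9 CPM in LSK and 7.44, 7.06, 7.67 and 10.9 CPM in LK, a log2 difference of 1.08 ± 0.24. Of the 25-base stretches of Tgtp1, 94% also occur in Tgtp2, so their separate values are uncertain. Both passed in DESeq2, as did Igtp at 0.63 ± 0.17. The other 2 genes apart were 9930111J21Rik1 and 9930111J21Rik2, which share 84.9% of such stretches.

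The size of the difference in this group rested in large part on LSK 4. Gvin1, a very large member, had 8.20, 4.46, 3.56 and 19.3 CPM in LSK against 3.13, 3.16, 3.67 and 2.88 CPM in LK. Without LSK 4 the list's median was 0.23. Then 9 genes were higher at an unadjusted p under 0.05 (37.5%, against 3.62% of all genes) and 4 apart (16.7%, against 3.72%). Without LSK 1, 10 genes were apart (41.7%, against 2.8%), and without LSK 3 there were 7 (29.2%, against 5.71%). LSK 4 was also the highest library for Tgtp1, Tgtp2 and Igtp, and without it the log2 difference of Tgtp2 was 0.76.

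**Figure D4:**
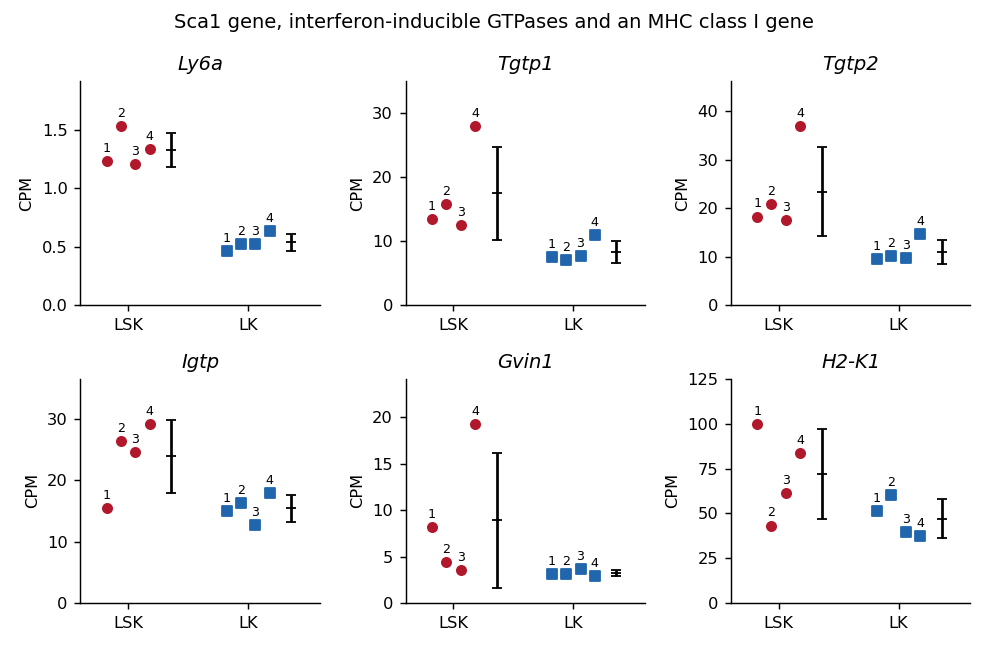
Levels in CPM of Ly6a, of the GTPase genes Tgtp1, Tgtp2, Igtp and Gvin1 and of the MHC class I gene H2-K1, with linear axes from 0. Numbers beside points are the title numbers of the libraries and bars are mean ± SD (n = 4). Ly6a, Tgtp1 and Tgtp2 are apart, and LSK 4 is the highest library in the 4 GTPase genes.

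Other interferon-stimulated genes had a smaller median, and the difference from the GTPases was not tested. Of 35 tested, 6 were higher at an unadjusted p under 0.05 (17.1%, against 3.94% of all genes) and none lower. In 3 (8.57%, against 1.91%) the groups were apart, and the median was 0.13. Without LSK 4 there were 2 at such a p (5.71%, against 3.62%), with a median of 0.03. Without LK 1 there were 3 (8.57%, against 2.78%). Without LSK 2 or LK 4, 5 were apart (14.3%, against 3.63% and 2.92%). Ifih1, a sensor of viral RNA, had 3.81, 3.78, 3.48 and 5.05 CPM in LSK and 2.31, 2.60, 2.19 and 3.00 CPM in LK. Oasl2 had 3.59, 2.32, 2.09 and 1.99 CPM in LSK against 1.42, 0.808, 1.52 and 1.46 CPM in LK. Isg15, an interferon-induced ubiquitin-like protein, differed by 0.31 ± 0.42 with overlapping groups.

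MHC class I genes, which present peptides to cytotoxic T cells, varied between the LSK libraries. H2-K1 had 100.1, 43.2, 61.3 and 83.7 CPM in LSK and 51.1, 60.2, 39.8 and 37.2 CPM in LK. H2-D1 had 122, 54.5, 80.7 and 126 CPM in LSK and 70.5, 77.9, 60.8 and 55.0 CPM in LK. Nlrc5, the transactivator of these genes, followed with 12.6, 1.93, 5.08 and 12.9 CPM against 2.60, 4.36, 2.67 and 1.42 CPM. LSK 2 lay below LK 2 in all 3. Of 19 genes of the list, 5 were higher at an unadjusted p under 0.05 (26.3%, against 3.94% of all genes). None was apart, and the median was 0.17. The 5 became 1 (5.26%) without LK 3, LK 4 or LSK 4, against 4.72%, 2.67% and 3.62% of all genes. They became 2 without LSK 1 (10.5%, against 2.65%). Without LSK 2 they became 10 (52.6%, against 3.87%), with 5 apart (26.3%, against 3.63%). B2m, the common light chain, differed by 0.11 ± 0.10. The 4 MHC class II genes tested overlapped.

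Log2 differences above 1 were found in a family of predicted genes whose transcripts resemble satellite DNA. Mouse major satellite is a tandem repeat of the pericentromeric heterochromatin that is transcribed at low level in dividing cells. A family was defined from the 6 predicted genes that the naming rule took up. It held GENCODE genes with at least 50% of sampled 12-base words in common with those 6, and 11 of its 13 genes were in the table. The family was chosen after the values were seen. The first 240 bases of the Gm10722 transcript show the repeat, with capitals for the 164 bases covered by 12-base words that all 11 genes contain.
Gm10722: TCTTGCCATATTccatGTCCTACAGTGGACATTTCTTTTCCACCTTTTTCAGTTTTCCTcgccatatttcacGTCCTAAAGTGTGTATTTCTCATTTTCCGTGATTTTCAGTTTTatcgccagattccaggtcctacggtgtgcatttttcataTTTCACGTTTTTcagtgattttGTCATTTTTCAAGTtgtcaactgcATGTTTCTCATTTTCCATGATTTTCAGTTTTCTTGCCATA
The transcript of 651 bases matches itself best at a shift of 234 bases (65.2% identity), and 79.1% of it is covered by words common to the 11 genes. A read can therefore fit several of these genes, and they are 1 measurement rather than 11.

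All 11 satellite-like genes had a log2 difference above 1, from 1.21 to 1.52, and 10 were apart. The starting genes of the family were named for being higher in LSK, so their direction was fixed by that choice. The genes added by shared sequence were Gm10715, Gm10718, Gm10720, Gm10800 and Gm11168, with log2 differences from 1.21 to 1.52. All of these but Gm10715 were apart, but they may share reads with the starting genes and are not a separate test. Gm10801 had 967, 983, 814 and 474 CPM in LSK and 303, 402, 418 and 137 CPM in LK, a log2 difference of 1.36 ± 0.30 (edgeR adjusted p = 0.207). Gm10715 was the exception, since LSK 4 (21.1 CPM) lay below LK 2 and LK 3 (23.2 and 22.2 CPM). Summed over the family the LSK libraries held 18090, 19010, 10950 and 9173 CPM and the LK libraries 5866, 7391, 7797 and 2544 CPM. The adjusted p ran from 0.207 to 0.476.

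The receptor background moved with part of this pattern. LSK 1 and LSK 2 were the highest in both, and LK 4 had the lowest satellite-like level and the lowest background of the LK libraries. LSK 3 went the other way. Its background of 302 was below that of every LK library, and its satellite-like sum of 10950 CPM was above all of them. With the background as a covariate the family median was 1.16 in place of 1.36. All 11 genes kept an unadjusted p under 0.05, beside 3.02% of all genes higher at such a p. The family was built from genes picked in these same libraries for being higher in LSK, so that count is not a test. The 11 count as 1 measurement, and whether the background accounts for their difference was not tested.

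**Figure D5:**
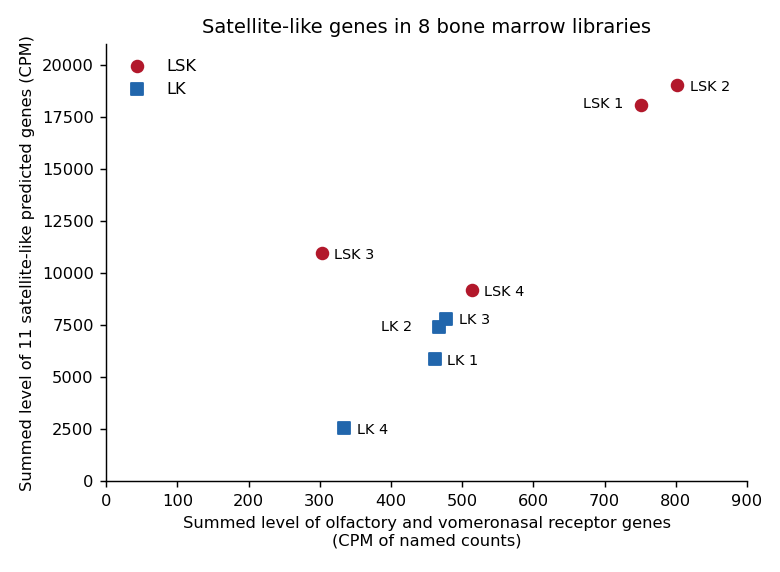
Summed level of the 11 satellite-like genes (CPM, vertical) against the receptor background (CPM of named counts, horizontal) in the 8 BM libraries. LSK points lie above all LK points, and LSK 3 combines the lowest background with 10950 CPM.

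Genes lower in LSK included many predicted ones. The 12 with the smallest p among those apart and with a mean of at least 50 counts had log2 differences from -0.93 to -0.28. Of these, 7 are predicted genes or Riken clones, beside Vamp1, Trim17, Tmem181a, Nhlrc3 and Mosmo. Vamp1, a vesicle SNARE protein, had 17.6, 18.9, 18.0 and 20.2 CPM in LSK and 23.8, 26.3, 24.0 and 27.9 CPM in LK, a log2 difference of -0.45 ± 0.08 (edgeR adjusted p = 0.122). D130019J16Rik had 31.9, 34.1, 31.2 and 30.9 CPM in LSK and 45.3, 45.4, 38.7 and 45.2 CPM in LK, at -0.45 ± 0.07. Trim17, a ubiquitin ligase, had 1.61, 2.32, 2.27 and 1.38 CPM against 3.59, 4.64, 2.81 and 3.44 CPM and the largest difference of the 12, -0.93 ± 0.23. In DESeq2, Vamp1, D130019J16Rik, Gm37099, Gm26781 and Ptpn13 were the 5 genes called lower.

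No gene of the stem cell and fusion-target lists was apart, which does not show equal levels. Of 20 stem and progenitor genes tested, 16 had a log2 difference above 0. Only Cd93 had an unadjusted p under 0.05 (5%, against 3.94% of all genes), with 216, 190.5, 200.3 and 169 CPM in LSK and 188, 135, 178 and 148 CPM in LK. Without LSK 3, 4 of 21 were higher at such a p (19%, against 5.89%) and 3 apart (14.3%, against 5.71%). Without LSK 4 there were 3 at such a p (15%, against 3.62%), and without LK 2 or LK 4 none was higher. The list median was 0.26 over all 20 and 0.02 over its members with a mean of at least 50 counts. Myb, a transcription factor of immature blood cells, ran from 289 to 328 CPM in LSK and from 297 to 314 CPM in LK. Of 23 genes of the KMT2A complex and HOX targets, 12 fell under the count minimum, and the 11 tested had a median of 0.00 with none apart.

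The genes that define other cell types were low in both fractions. The defining markers of myeloid, erythroid, megakaryocyte, NK, mast cell, plasmacytoid dendritic and stromal or endothelial cells reached at most 0.891, 0.948, 1.77, 0.191, 2.21, 0.57 and 1.29 CPM in any BM library. S100a8, a granulocyte gene, was at 0 in 7 of 8 libraries. The 25 myeloid markers summed to between 34.6 and 63.1 CPM in LSK and between 31.8 and 51.6 CPM in LK, with 8 tested and none apart. Fcgr3, an Fc receptor, was uneven at 31.1, 17.9, 0.936 and 5.61 CPM in LSK and 18.7, 1.65, 3.10 and 4.07 CPM in LK. The summed ranges of the 6 other marker lists overlapped as well, among them the plasmacytoid list (142 to 168 CPM in LSK, 142 to 167 CPM in LK) and the stromal and endothelial list (71.6 to 109 CPM and 86.5 to 106 CPM). The megakaryocyte list (3 genes tested) had a median of 0.54 and the stromal and endothelial list (8 tested) 0.36, with none apart in either. The NK list rested on Gzma, a granule protease, at 50.1 to 65.6 CPM in LSK and 34.3 to 55.3 CPM in LK.

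The 25 heat shock and chaperone genes summed to 5207 to 5398 CPM in LSK and 4890 to 5172 CPM in LK, so the sums were apart, although the median log2 difference over the 22 tested was 0.05. Hspa8, the constitutive HSP70 chaperone, had 1064, 1246, 1109 and 1066 CPM in LSK and 979, 1062, 868 and 960.2 CPM in LK (0.21 ± 0.08). It was the only heat shock gene of 22 that was apart (4.55%, against 1.91% of all genes). Among 28 immediate early genes, Tnfaip3, a brake on NF-kB, was higher at 0.33 ± 0.11 and Btg2 lower, and none was apart. At an unadjusted p under 0.05 these were 3.57% each way, against 3.94% and 2.22% of all genes. In the ATF4 response Slc7a5, an amino acid transporter, was the 1 of 14 genes apart (7.14%, against 1.91% of all genes), at 0.14 ± 0.06.

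Homing and metabolism lists lay close to the median of all genes. The 19 homing and adhesion genes had a median of -0.03. Itga6, the laminin-binding integrin chain, was the 1 gene with an unadjusted p under 0.05 (5.26%, against 3.94% of all genes higher). It had 12.7, 14.5, 13.6 and 11.2 CPM in LSK and 11.7, 8.12, 11.7 and 9.29 CPM in LK. Cholesterol synthesis and uptake (24 genes) had a median of -0.03, fatty acid synthesis (13) 0.02, and hypoxia and glycolysis (29) 0.07. Of 77 nuclear genes of oxidative phosphorylation, 4 were higher at an unadjusted p under 0.05 (5.19%, against 3.94% of all genes). In 3 (3.9%, against 1.91%) the groups were apart, and the median was 0.05. The 4 became 8 without LK 3 (10.4%, against 4.72%), 1 without LK 2 or LSK 1 and none without LK 1, LK 4, LSK 3 or LSK 4. The 3 became 11 without LK 3 (14.3%, against 4.5%), 8 without LSK 2 (10.3%, against 3.63%) and 5 without LK 2 (6.49%, against 3.17%). Sdhc, a subunit of complex II, ran from 26.6 to 30.2 CPM in LSK and from 24.1 to 25.8 CPM in LK. The 13 mitochondrially encoded genes had a median of -0.03 and the 88 ribosomal protein genes 0.08, with none at an unadjusted p under 0.05 in either list.

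The same contrast can be made in the CNS libraries. The labels give each BM library a sample code that 1 CNS library shares but for its last letter. What the codes stand for is not given in the sources used here, so the CNS values may not be independent of the BM values. In the CNS the adjusted edgeR test called 0 of 19781 genes and DESeq2 9, and 1443 genes had an unadjusted p under 0.05. Of these, 1131 (5.72%) were higher and 312 (1.58%) lower in LSK, while 531 genes (2.68%) were apart with LSK higher and 254 (1.28%) with LSK lower. The 103 mitosis genes had a median of 0.33 in the CNS, with 68 higher at an unadjusted p under 0.05 and 9 apart. The histone median was 0.27, the replication median -0.02 and the GTPase median 0.49, the last over 25 genes where BM had 24. Ly6a differed by 1.32, Cenpf by 0.64, Ube2c by 0.71, Tgtp2 by 1.02 and the satellite-like family by a median of 0.68. Vamp1 was lower by -0.38, while D130019J16Rik was at -0.11. The receptor background was higher in the CNS, at 709 to 1063 in LSK and 381 to 911 in LK.

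The test of the difference between the BM and the CNS contrast called 0 of 18878 genes in edgeR and in DESeq2, and 281 (1.49%) had an unadjusted p under 0.05. With the shared code as a block, an alternative chosen after seeing the data, 0 passed and 589 had an unadjusted p under 0.05. In the test without that block, 1 of the 103 mitosis genes had such a p, and none of the 25 GTPase genes tested there. The gene with the smallest p was Eif2b1, a subunit of the guanine nucleotide exchange factor of translation initiation, which was 0.15 higher in LSK in BM and -0.26 in the CNS. Nhlrc3, lower in LSK in BM by -0.40 ± 0.11, was at 0.02 in the CNS. Neither passed after adjustment, and a p above the threshold does not show that the contrasts are equal.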

How the data were processed

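Bulk RNA libraries were made with a low-input stranded total RNA kit, per the labels' protocols. The authors deposited a table of whole-number counts for 55414 Ensembl identifiers, whose name calls the values normalised. The deposited counts sum to a different total in each library, so they were treated as raw counts. The submitters' processing notes name DESeq2 and the build GRCm39. The aligner, the counter and any use of strand or molecular identifiers are not given in the sources used here. Counts may therefore not be independent molecules, and overlapping or antisense genes cannot always be told apart. Identifiers without a symbol (3333) took 41.8% of the counts and stayed in the library sizes. The number of per-sample columns not used was 0.

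Genes with a mean of at least 10 counts were tested with edgeR 4.0.16 in R 4.3.3 (TMM factors, quasi-likelihood test, Benjamini-Hochberg adjustment, threshold 0.05), on the 8 BM libraries with group as the 1 term. The CNS contrast and the difference between the contrasts were fitted in the same way. DESeq2 1.42.0 was an alternative, beside another scaling, other count filters, covariates, a block on the title number and each library left out. The scripts were tested on simulated data. No 2 libraries of a group agreed within sampling noise, so none was taken as a duplicate. Depth, from 19.2 M to 27.9 M counts per BM library, sets the counting error alone.

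Named by rule were up to 12 genes each way that were apart with a mean of at least 50 counts, 6 each way from the fit with the block, 3 each way for the difference between the contrasts, and in each list the 2 members with the smallest p and the 2 with the highest mean level. Other genes in the text were chosen after their values were seen, and some genes are not reported here. The comparison and the lists were chosen with earlier results of these data known. Promoters came from RefSeq (GRCm38.p6) and transcript sequences from GENCODE M21. Neither is of the deposited table's build, so genes were matched by identifier or symbol and no gene coordinates of the table are given.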

Additional observations from a re-analysis of the deposited data

Results flagged for a closer look

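In 17 of 284 groups of 4 libraries examined, 1 library lay far from the other 3, by Dixon's criterion for single outlying values. Chance gives about 1 in 20, or 14.2 of 284. The values are given with no explanation.

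Among the interferon-related genes, Tgtp2 was 37.0 CPM in LSK 4, where the other LSK libraries ran from 17.6 to 20.9 CPM, and 14.7 CPM in LK 4, where the others ran from 9.57 to 10.1 CPM. Tgtp1 was 10.9 CPM in LK 4 against 7.06 to 7.67 CPM. Oasl2 was 0.808 CPM in LK 2 against 1.42 to 1.52 CPM, and 9930111J21Rik1 stood at 2.00 CPM in 1 LK library against 2.74 to 2.85 CPM.

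Among the cell division genes, Cdk1 was 39.5 CPM in LK 3 against 29.4 to 30.4 CPM, and Dsn1 was 14.8 CPM in 1 LK library against 12.2 to 12.6 CPM. The summed level of the mitotic cyclins and kinases was 590 CPM in 1 LK library against 509 to 516 CPM.

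Of the lineage and other genes, D130019J16Rik was 38.7 CPM in LK 3 against 45.2 to 45.4 CPM, and Lck was 215 CPM in 1 LSK library against 231 to 233 CPM. Fcgr3 was 18.7 CPM in LK 1 against 1.65 to 4.07 CPM. Gzma was 65.6 CPM in LSK 3 against 50.1 to 51.3 CPM, and the summed NK list 66.2 CPM against 51.5 to 53.1 CPM. S100a8 was 0.0395 CPM in LK 4 and 0 in the other LK libraries. The receptor background was 334 in LK 4 against 461 to 477. In 1 LK library each, hypoxia and glycolysis genes summed to 2681 CPM against 2157 to 2233 CPM, and mitochondrially encoded genes to 9093 CPM against 7968 to 8141 CPM.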

How the results depend on the processing

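The count of 0 BM genes past the adjusted threshold held with another scaling, a mean of at least 50 counts, identifiers with a symbol only, the receptor background as a covariate and 1 fit over all 16 libraries. It was 81 in DESeq2, 50 of them in the mitosis lists, and 194 with no filter on low counts. Leaving out 1 library gave 0 to 3, with 3 each without LSK 2 and without LSK 4. In the CNS the count was 9 in DESeq2, 124 with no filter and 0 without any 1 library, and for the difference between the contrasts it was 0 in every alternative run. The cause of these shifts was not tested.

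The title numbers 1 to 4 are shared by both fractions, and the sample codes of same-numbered libraries begin alike, with no statement of what they mark. With them as a replicate block, 111 BM genes passed, 106 higher and 5 lower in LSK, of which 48 were in the mitosis lists and 11 satellite-like. In the CNS 1 gene passed. With the block and the background covariate together, 16 BM genes passed. With the block, and chosen after seeing the data, the count was 9 without number 1, 84 without number 2, 78 without number 3 and 10 without number 4. Deviations from the group means of same-numbered libraries correlated at 0.139, 0.174, -0.080 and 0.162, so the numbers were not taken to pair the samples. At that minimum of 10 counts, 3 of the 4 LSK libraries correlated best with their own number and number 3 did not. Over genes with a mean of at least 50 counts the correlations were 0.332, 0.093, 0.248 and 0.355. There all 4 LSK libraries correlated best with their own number, while LK 2 did not. Between the BM and the CNS library of 1 sample code they were 0.339 to 0.618 at that minimum, each of the 8 highest with its own code, and -0.027 to 0.298 over genes with a mean of 10 or more.

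Of 776 list medians under alternatives, 17 moved by more than the spread between libraries. The GTPase median, 0.590 in the main test, ran from 0.229 without LSK 4 to 0.720 without LSK 1. With no filter, the medians were 0.337 for MHC class II (0.151 in the main test), 0.326 for B-lineage (0.096) and 0.387 for myeloid genes (0.026), and the direction turned to 0.591 for erythroid (-0.340) and 0.606 for mast cell genes (-0.364). With the minimum mean raised to 50 counts, the stem gene median was 0.021 (0.257 in the main test) and the stromal median turned to -0.194 (0.360). With the background covariate the stem gene median was 0.042 and the megakaryocyte median turned to -0.279 (0.541). With the covariate and the block, the megakaryocyte median was -0.524 and the stromal -0.186. With the block and without 1 number, the medians were 0.035 for stem genes (number 2), 0.329 for MHC class II (number 4), -0.082 for the fusion partners (-0.020 in the main test), -0.599 for erythroid and 0.851 for stromal genes (number 3). Of 3979 values of 191 single genes under alternatives, 254 in 63 genes passed the threshold that they missed in the main test, 223 in 45 genes changed sign without passing it, and 0 passed with the sign reversed. Most of these lists have few members above the count minimum, which limits their medians.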

Other observations

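Outside the lists, DESeq2 called further genes higher in LSK that are known for roles in cell division. Gas2l3, a cytoskeletal linker of the midbody, had 18.5, 15.9, 19.2 and 17.7 CPM in LSK and 13.5, 12.2, 12.3 and 11.3 CPM in LK, a log2 difference of 0.53 ± 0.09 (edgeR adjusted p = 0.122). Gpsm2, which orients the spindle, differed by 0.47 ± 0.09, with the groups apart. The tubulin genes Tubb4b and Tuba1a differed by 0.54 ± 0.11 and 0.40 ± 0.09, also with the groups apart. Hmgb2, a chromatin protein of proliferating cells, differed by 0.43 ± 0.11 with overlapping groups. All of these except Gas2l3 were chosen after their values were seen, and none of the 5 passed the adjusted edgeR test.

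Dntt, the polymerase that adds bases at recombination joints, had 146, 36.8, 67.6 and 10.4 CPM in LSK and 47.8, 50.5, 38.9 and 31.8 CPM in LK, so LSK libraries held both its highest and its lowest value. Trac, the constant part of the T-cell receptor alpha chain, lay under the count minimum, with 3, 11, 8 and 6 counts in LSK and 1, 2, 1 and 1 in LK.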
